A study of Capra hircus with 36 samples.

Results

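The miR-181 family is a group of miRNAs that is conserved across vertebrates and whose guide strands, the 5p arms, share a seed, so that members can recognise overlapping sets of target mRNAs. A precursor hairpin gives a 5p and a 3p arm, and in this family the 5p arm is usually the one loaded into Argonaute. The family is best known in the immune system, where miR-181a tunes antigen receptor signalling in developing T cells, and it is also expressed in muscle, heart and endothelium. In mammals miR-181a and miR-181b are encoded side by side at more than one locus, and miR-181c is encoded beside miR-181d.

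The members were all rows of the count files named miR-181a, miR-181b, miR-181c or miR-181d, either arm, apart from rows the study predicted as new miRNAs. Of 1391 mature miRNAs, 6 rows matched: chi-miR-181a-5p, chi-miR-181a-3p, chi-miR-181b-5p, chi-miR-181b-3p, chi-miR-181c-5p and chi-miR-181c-3p, where chi stands for Capra hircus and is left out of most names that follow. The miR-181a rows are of the class that the study assigned by identity to a miRNA of another mammal, and the other 4 rows are annotated in goat. No row matched miR-181d, which was not analysed here. None of the 6 rows had the same counts as another row in all libraries. A row names a mature miRNA, and the loci that gave its reads cannot be told apart from the counts. In the RefSeq gene table for goat, MIR181B lies within NR6A1, and MIR181C and MIR181D are neighbours between NANOS3 and ZSWIM4.

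The libraries came from adult female goats of about 3 years: 3 of the Tibetan Goat population from 3000 m, called high altitude, and 3 of the Chuandong White Goat population from 600 m, called low altitude. From each goat the spleen, lung, heart, kidney, liver and a piece of longissimus muscle were taken, which gave 36 small RNA libraries in 12 groups of 3. Altitude, breed, origin and rearing differ together between the populations and cannot be told apart. The replicates are separate goats, and numbers 1 to 3 name different goats in the 2 populations. No treatment or genetic change was applied.

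The counts assigned to miRNAs summed to between 7108635 and 14407748 per library, so that 3 counts equal 0.208 to 0.422 RPM, the reads per 1000000 miRNA counts. Of the tissue markers listed, miR-208b-3p and miR-499-5p were highest in heart, miR-206-3p and miR-133a-3p in muscle, miR-122-5p in liver and miR-34c-5p in lung. The kidney marker miR-194-5p had a higher mean in liver (16949 RPM) than in kidney (2568 RPM). Apart from rows predicted as new miRNAs, no row matched miR-192-5p, miR-449a-5p, miR-146a-5p or miR-451-5p.

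The family as a whole was most abundant in spleen and lung and least abundant in liver and muscle. The summed RPM of the 6 rows was 28840.1 ± 9097 (SD, n = 6) in spleen, 25671 ± 9187 in lung, 14693 ± 2357 in heart, 11127.5 ± 4826 in kidney, 7678 ± 2060.4 in liver and 7286 ± 3799 in muscle. These levels are 2.88% of all miRNA counts in spleen and 0.729% in muscle. In bulk tissue, more cells of a type and more RNA per cell cannot be told apart. No pair of neighbours in this order passed the exact two-sided sign-flip test within goats over 15 pairs of tissues, and lung, for example, was above heart in 5 of 6 goats (p = 0.0625, adjusted p = 0.0938). In 9 of the 15 pairs the order was the same in every goat, which gives the smallest possible p of 0.03125 and an adjusted p of 0.0521, so no pair passed 0.05 for the sum.

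The order depends on the scale. The mean TMM factor, which rescales the library size, was 0.599 in muscle and 0.78 in heart against 1.43 in lung and 1.33 in spleen. On the rescaled sizes the family stood at 21734.5 RPM in spleen, 19200 in heart, 18019 in lung, 11880 in muscle, 10970 in kidney and 5985 in liver. Spleen therefore had the highest and liver one of the 2 lowest means on both scales, whereas heart, lung, kidney and muscle changed places.

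chi-miR-181a-5p made up 94.1 to 97.7% of the family counts in every library and so sets the summed level. It was the member with the highest rank, between 3 and 34 among all miRNAs of a library. In spleen it ran from 17808 RPM over a median of 27359 to 41283, and in lung from 13951 over 23334 to 36691. Heart libraries ran from 11536.5 over 13724 to 17276.5 RPM, and kidney libraries from 5343 over 10243 to 18744. Liver libraries ran from 4937 over 6780.2 to 10120.1 RPM, and muscle libraries from 3465 over 6445 to 13945. All spleen and lung values lay above all liver and muscle values, although the lowest in lung and the highest in muscle almost met. The other members were far rarer.

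**Figure D1:**
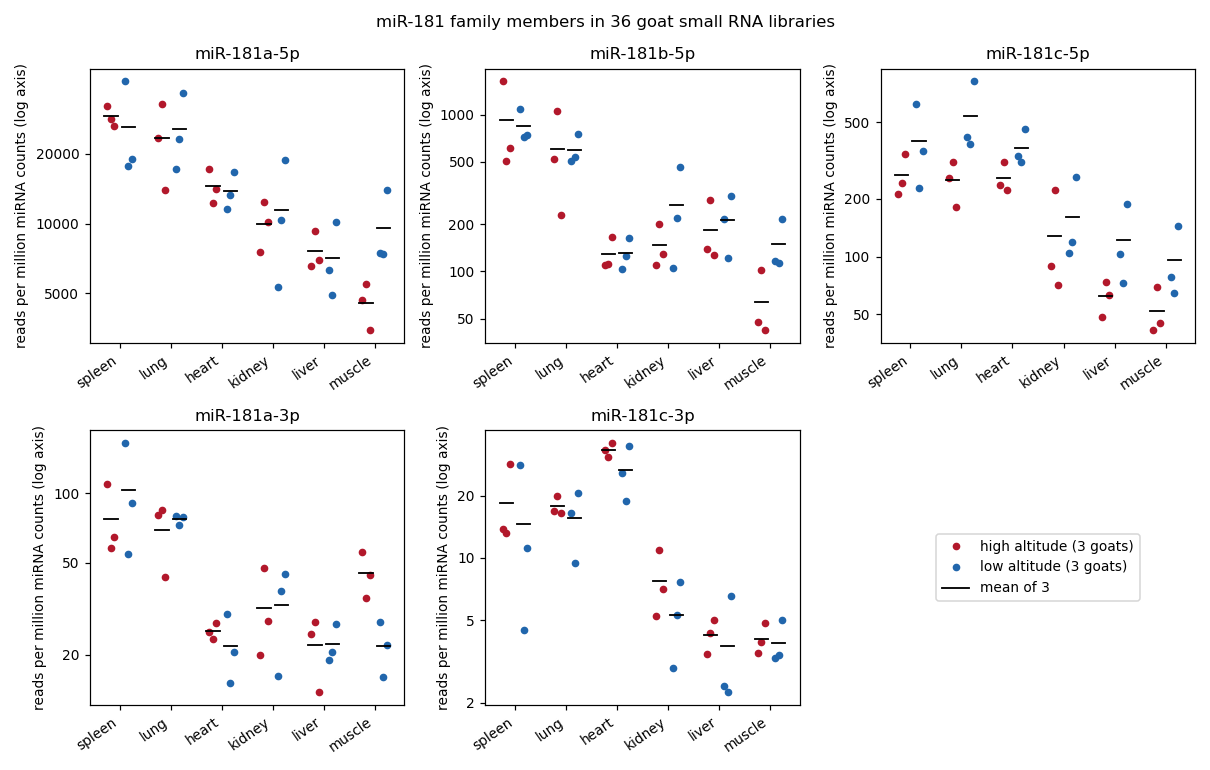
RPM of 5 family members (log axis) by tissue, with 1 point per library, high altitude in red, low altitude in blue, and a line at the mean of 3. miR-181a-5p and miR-181b-5p are highest in spleen and lung, and miR-181c-3p is highest in heart, with a mean of 29.9 RPM.

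Tissues were compared on the counts with edgeR's quasi-likelihood test, each tissue against the mean of the other 5, in one fit over all libraries and with adjustment over all 1391 miRNAs. All 6 rows differed between tissues in the test of any tissue difference, which called 39.3% of all miRNAs and 82.8% of the 308 miRNAs with a mean of at least 10 RPM. Of the 36 combinations of row and tissue, 18 passed an adjusted p of 0.05. Of these 18 calls, 8 remained without low-altitude replicate 1, 10 without low-altitude replicate 2, 11 without high-altitude replicate 3, 12 without low-altitude replicate 3, 13 without high-altitude replicate 2 and 14 without high-altitude replicate 1. Under 5 other settings, which include DESeq2 and the goat as a block, there were 19 to 27 calls, with 16 to 18 of the 18 among them. Per tissue, the main fit called 185 to 271 of all 1391 miRNAs and DESeq2 222 to 295. With a goat left out, the calls over all miRNAs fell as well, to 130 to 220 per tissue. Without low-altitude replicate 1 they were 137 to 197. RLE size factors called 186 to 282, library totals 167 to 296, the block 171 to 227, and filterByExpr 189 to 268 of 712. The 7 calls that held in all these fits are miR-181b-5p higher in spleen, both arms of miR-181c higher in heart, and both arms of miR-181a and of miR-181c lower in liver.

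In spleen, 4 of the 6 rows were higher than in the other tissues, against 13.0% of all miRNAs and 19.5% of those with at least 10 RPM. The largest spleen difference among the 5 members other than the rare miR-181b-3p was that of chi-miR-181b-5p, which shares its precursor cluster with miR-181a. Its 6 spleen libraries ran from 508 RPM over a median of 727 to 1637, with 1637, 508 and 610.3 RPM in the high-altitude goats and 1081, 715 and 738 in the low-altitude goats. The lowest of these lay above the highest value of any other tissue but lung, which was 465.5 RPM in a kidney library, and the spleen and lung values overlapped. The log2 fold change was 1.8 (SE 0.21, adjusted p = 2.17e-07). miR-181a-5p was higher by 0.83 (SE 0.17, adjusted p = 0.000534) and miR-181a-3p by 0.98 (SE 0.23, adjusted p = 0.00244). Without low-altitude replicate 1, whose spleen held the most miR-181a-5p, these values were 0.54 (adjusted p = 0.104) and 0.79 (adjusted p = 0.068). miR-181c-5p stood at 0.57 (adjusted p = 0.0558) and passed under all 5 other settings, with 0.57 (adjusted p = 0.0181) with the goat as a block, 0.59 with RLE size factors and DESeq2, 0.49 with filterByExpr and 1.05 (adjusted p = 0.00552) with library totals alone.

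The summed level of the leukocyte miRNAs listed for comparison was also highest in spleen. Of the 8 names, 7 had rows, and miR-142-5p, miR-142-3p, miR-150-5p, miR-155-5p and miR-223-3p passed the test as higher in spleen. Their summed RPM ran from 18245 to 67851 in spleen, 10417 to 16103 in lung, 6863 to 23119 in liver, 1625 to 3854 in heart, 1519 to 3966 in kidney and 838 to 2006 in muscle. miR-155-5p, miR-146b-5p and miR-223-5p passed it as higher in lung, where the more abundant of the 2 rows of miR-146b-5p had a mean of 2808 RPM, and miR-142-5p passed it as higher in liver. miR-150-5p passed it as higher in muscle (log2 fold change 1.33; edgeR, adjusted p = 0.00012), the tissue with the lowest summed level of the list. Lower in muscle were miR-142-5p (-2.44), miR-142-3p (-2.88), miR-155-5p (-1.65) and the more abundant row of miR-146b-5p (-3.10). Liver was lower for miR-150-5p (-2.02; edgeR, adjusted p = 1.81e-05). Both arms of miR-142 passed as lower in heart and kidney, as did miR-155-5p in heart and miR-150-5p in kidney. None of the list's rows passed the altitude test in spleen. By the sum of the list, liver overlapped with lung on plain RPM and on rescaled sizes (4223 to 21417 against 6356 to 19406 RPM). Most of the liver sum was miR-142-5p, with a mean of 11637 RPM. The miR-181 mean was lowest in muscle on plain RPM and in liver on rescaled sizes. The part of leukocytes in the miR-181 levels was not tested.

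In lung, 3 rows were higher, against 10.6% of all miRNAs and 17.2% of those with at least 10 RPM. These were the 5p arms: miR-181b-5p by 0.87 (SE 0.23, adjusted p = 0.00714), miR-181c-5p by 0.73 (SE 0.21, adjusted p = 0.0125) and miR-181a-5p by 0.52 (SE 0.17, adjusted p = 0.0389). The 3p arms of miR-181a and miR-181c did not pass here, but miR-181a-3p passed as higher in lung in 4 of 5 other settings, with 0.77 with RLE size factors and DESeq2, 0.84 with filterByExpr and 1.10 with library totals, and miR-181c-3p in 2, with 0.71 with filterByExpr and 0.65 with DESeq2. With a goat left out in turn, the calls of the 5p arms held in 3 of 6, 2 of 6 and 1 of 6 fits. The values without the goat ran from 0.73 to 1.10, from 0.61 to 0.83 and from 0.42 to 0.69. miR-181b-5p in lung was 521, 1048 and 231 RPM in the high-altitude goats and 503, 539.7 and 748 in the low-altitude goats. Lung and spleen did not separate for this member, which was higher in spleen in 4 of 6 goats (exact sign-flip adjusted p = 0.216).

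In heart, 3 rows, both arms of miR-181c among them, were higher, against 8.48% of all miRNAs and 20.8% of those with at least 10 RPM: miR-181c-3p by 2.40 (SE 0.26, adjusted p = 1.96e-08), miR-181c-5p by 1.43 (SE 0.20, adjusted p = 1.78e-06) and miR-181a-5p by 0.63 (SE 0.17, adjusted p = 0.0106). Of all miRNAs, 4.82% were lower in heart, none of them a member in this fit, although miR-181b-5p passed as lower with library totals (-1.15, adjusted p = 0.0264) and with DESeq2 (-0.71, adjusted p = 0.0113). miR-181c-3p was 33.4, 30.8 and 35.9 RPM in heart of the high-altitude goats and 25.7, 18.8 and 34.8 in that of the low-altitude goats. Lung followed with 16.6 ± 3.91 RPM (SD, n = 6) and spleen with 16.5 ± 9.64, and kidney, liver and muscle had 6.53 ± 2.71, 4.0 ± 1.65 and 3.99 ± 0.767. Heart exceeded lung in all 6 goats, by 0.82 ± 0.19 (SD) on the log2 scale of RPM (exact sign-flip p = 0.03125, adjusted p = 0.0469), and exceeded spleen in 5 of 6 goats (adjusted p = 0.0721). The call for miR-181a-5p in heart was tied to the scale, at 0.14 (adjusted p = 0.9999) with library totals alone.

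miR-181c-5p had close levels in 3 tissues by RPM. Its mean was 396 ± 225 RPM (SD, n = 6) in lung, 334 ± 155 in spleen and 313 ± 84.7 in heart, and no pair of these 3 passed the sign-flip test (adjusted p from 0.18 to 0.875). It was 144 ± 76.9 RPM in kidney, 91.7 ± 50.6 in liver and 73.8 ± 37.5 in muscle. The remaining 12 of the 15 pairs of tissues had the same order in all 6 goats (exact sign-flip adjusted p = 0.0391), including liver above muscle by 0.29 ± 0.15 (SD) on the log2 scale. The order of liver and muscle turned on the rescaled sizes, with liver below muscle in all 6 goats, at -0.84 ± 0.37 (SD; exact sign-flip adjusted p = 0.0391). On the rescaled library sizes heart was highest, at 419 RPM, followed by lung with 275 and spleen with 248. There heart was above spleen in all 6 goats (exact sign-flip adjusted p = 0.0391). Kidney, above muscle in every goat by RPM, was then below it in low-altitude replicate 2 (105 against 119) and low-altitude replicate 3 (168 against 169).

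Liver was lower than the other tissues in 5 of the 6 rows, against 5.03% of all miRNAs and 18.8% of those with at least 10 RPM. The differences on the log2 scale were -1.93 (SE 0.35, adjusted p = 0.000145) for miR-181c-3p, -1.63 (SE 0.25, adjusted p = 1.07e-05) for miR-181c-5p, -1.42 (SE 0.28, adjusted p = 0.000423) for miR-181a-3p and -1.40 (SE 0.20, adjusted p = 5.16e-06) for miR-181a-5p. For miR-181b-5p the difference was -0.82 (SE 0.26, adjusted p = 0.0255), and -0.42 (adjusted p = 0.655) with library totals alone. The median difference of the 308 miRNAs with at least 10 RPM was -0.04 in this contrast, and 0.39 with library totals alone.

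In muscle, 3 rows were lower, against 6.04% of all miRNAs and 19.5% of those with at least 10 RPM, and none was higher. miR-181b-5p was at -0.74 (SE 0.26, adjusted p = 0.0409), and -0.70 (adjusted p = 0.0547) with the goat as a block. miR-181c-5p was at -0.70 (SE 0.23, adjusted p = 0.0327), and the third row was the rare miR-181b-3p. With a goat left out in turn, these calls held in 2 of 6, 2 of 6 and 0 of 6 fits. miR-181a-5p stood at -0.25 (adjusted p = 0.615), but passed with library totals alone, at -1.18 (adjusted p = 0.000844). miR-181c-3p passed as lower with library totals (-1.53), filterByExpr (-0.72) and DESeq2 (-0.63). miR-181a-3p was on the other side, at 0.65 (SE 0.24, adjusted p = 0.0558), and passed at 0.70 (adjusted p = 0.0298) with the goat as a block and at 0.57 (adjusted p = 0.0271) with DESeq2. With library totals alone this value was -0.37 (adjusted p = 0.781), the median of the 308 more abundant miRNAs in muscle being 0.04 with TMM and -0.91 with library totals. In kidney none of the 6 rows passed, where 11.7% of all miRNAs were higher and 4.39% lower. An unadjusted p under 0.05 was found for 1 of the 6, miR-181c-3p (edgeR, adjusted p = 0.164), and for 309 of all 1391 miRNAs. With DESeq2, miR-181a-5p, miR-181b-5p and both arms of miR-181c were lower in kidney, as were 130 of all 1391 miRNAs.

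**Figure D2:**
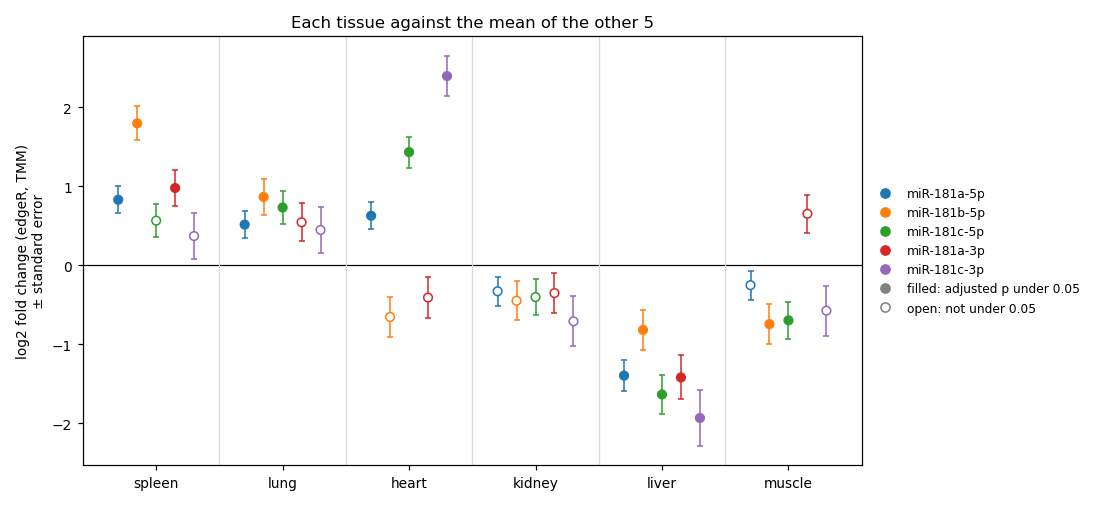
Log2 fold change of each tissue against the mean of the other 5 for 5 family members, with standard errors, from edgeR with TMM over 36 libraries; filled points have an adjusted p under 0.05. miR-181b-5p in spleen (1.8) and miR-181c-3p in heart (2.40) are the highest points, and all 5 members lie below 0 in liver.

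The 3p arms were minor products. miR-181a-3p had 126 to 1738 counts per library, with 90.5 ± 42.5 RPM (SD, n = 6) in spleen, 73.3 ± 15.3 in lung, 33.5 ± 14.7 in muscle, 32.3 ± 13.0 in kidney, 23.6 ± 5.31 in heart and 22.1 ± 5.39 in liver. It was 0.344% of the miR-181a counts on average over the 36 libraries. miR-181c-3p had 16 to 430 counts and was 5.69% of the miR-181c counts. miR-181b-3p had 87 counts in all 36 libraries together, at most 10 in any library, and 0 in 11 libraries, where up to 3 counts cannot be told from absence. It passed the tissue test as higher in spleen, with 3 to 10 counts per library, and as lower in muscle, with 1 count in 6 libraries, and no fold is given at these counts.

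Ratios within a library do not depend on its total, and their means differed between tissues, although no pair of tissues passed an adjusted p of 0.05. miR-181a-5p exceeded miR-181b-5p by 112 ± 24.2 times (SD, n = 6) in heart, 71.3 ± 16.3 in muscle, 57.8 ± 14.2 in kidney, 43.9 ± 10.5 in lung, 39.6 ± 9.9 in liver and 34.6 ± 13.6 in spleen. The ratio was highest in heart in comparison with each other tissue in all 6 goats, with log2 differences from 0.66 ± 0.33 against muscle to 1.76 ± 0.77 against spleen (SD; exact sign-flip p = 0.03125, adjusted p = 0.0521). In spleen the ratio ran from 19.8, in high-altitude replicate 1, to 55.5, in high-altitude replicate 2.

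Heart was also the tissue in which miR-181c-5p outnumbered miR-181b-5p in every library. The ratio of miR-181b-5p to miR-181c-5p was 0.464, 0.356 and 0.744 in heart of the high-altitude goats and 0.311, 0.405 and 0.353 in heart of the low-altitude goats. Its means were 1.39 ± 0.293 in muscle, 1.43 ± 0.435 in kidney, 1.69 ± 0.895 in lung, 2.35 ± 0.865 in liver and 3.09 ± 2.32 in spleen (SD, n = 6). Against each of these tissues heart was lower in all 6 goats, by 1.69 ± 0.747 on the log2 scale for muscle and 2.64 ± 0.901 for spleen (SD; exact sign-flip p = 0.03125, adjusted p = 0.067). These ratios had the same order in every goat and did not pass the adjusted threshold over 15 pairs.

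The balance of the arms in heart also had the same order against each other tissue in every goat, but did not pass the adjusted threshold. The 3p arm was 9.19 ± 3.25% of the miR-181c counts in heart (SD, n = 6), and its mean was 4.69 to 5.87% in the other tissues. For miR-181a the 3p arm was 0.171 ± 0.055% in heart, 0.304 to 0.328% in kidney, liver, lung and spleen, and 0.638 ± 0.483% in muscle. On the log2 scale of 3p over 5p, heart was above each other tissue for miR-181c in all 6 goats (exact sign-flip adjusted p = 0.0781) and below each other tissue for miR-181a in all 6 goats (adjusted p = 0.0938).

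**Figure D3:**
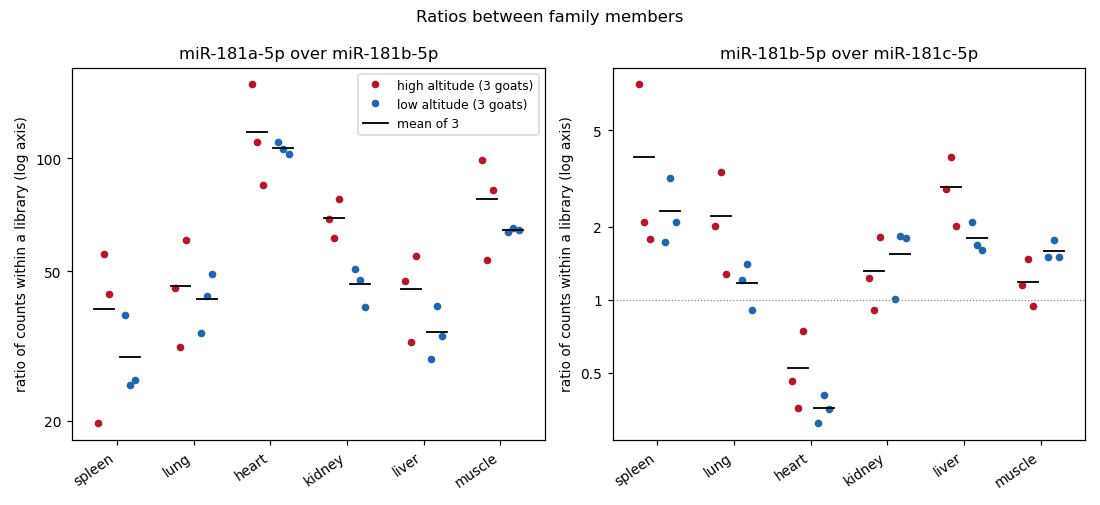
Ratio of counts within a library (log axis) of miR-181a-5p to miR-181b-5p and of miR-181b-5p to miR-181c-5p, with 1 point per library and a line at the mean of 3; the dotted line marks a ratio of 1. The 6 heart libraries have miR-181b-5p to miR-181c-5p ratios from 0.311 to 0.744, below 1.

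None of the members was tissue-specific by the index of the study (TSI, from 0 for equal means in all tissues to 1 for a single tissue, on mean RPM per tissue, with values above 0.85 taken as specific). The TSI was 0.719 for miR-181b-5p, 0.684 for miR-181b-3p, 0.682 for miR-181c-3p, 0.592 for miR-181a-3p, 0.535 for miR-181a-5p and 0.517 for miR-181c-5p. Of all miRNAs, 7.4% had a lower TSI than miR-181c-5p, the lowest member, and 27.7% a lower one than miR-181b-5p, the highest. The paper reported a sizeable part of all its miRNAs as tissue-specific by this index. On the rescaled sizes the TSI of miR-181a-5p was 0.385 and that of miR-181c-3p 0.785.

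Over the 36 libraries, which share tissues, goats and library totals, the members were correlated with each other to different degrees. On log2(RPM + 1), Pearson's r with miR-181a-5p was 0.865 for miR-181c-5p, 0.860 for miR-181b-5p, 0.720 for miR-181c-3p and 0.678 for miR-181a-3p. After the mean of each group of 3 was taken out, these values were 0.785, 0.833, 0.649 and 0.627. The lowest r among the 5 members was 0.357, between miR-181b-5p and miR-181c-3p, which peaked in different tissues.

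Among 212 other miRNAs with reads in every library and a mean of at least 10 RPM, the 5 most like miR-181a-5p over the 36 libraries were miR-221-5p (r = 0.778), miR-15b-5p (r = 0.775), miR-23a-3p (r = 0.769), miR-342-3p (r = 0.758) and miR-3432-5p (r = 0.735). For miR-181b-5p they were miR-155-5p (r = 0.870), a miRNA of activated lymphocytes and macrophages, let-7i-5p (r = 0.851), miR-497-5p (r = 0.842), miR-15b-5p (r = 0.818) and miR-106b-5p (r = 0.818). With rescaled sizes the r of miR-181b-5p with miR-155-5p was 0.775, and that of miR-181a-5p with miR-221-5p was 0.610.

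High and low altitude were compared within each tissue, to ask whether the family differed between the populations. None of the 36 combinations of row and tissue passed an adjusted p of 0.05 with a log2 fold change of at least 1.5 in edgeR's quasi-likelihood test, in which 0.0% of all miRNAs passed in heart, kidney, liver and lung, 0.0719% in muscle and 0.144% in spleen. The count was also 0 without the minimum fold change, where the shares over all miRNAs were the same, and with 2 other tests that called more. DESeq2 passed 1.58% of all miRNAs in lung, 2.23% in liver, 2.59% in spleen, 1.73% in kidney, 2.16% in muscle and 2.59% in heart. With edgeR's exact test the shares were 0.144% in lung, 0.575% in liver, 0.216% in spleen, 0.0719% in kidney, 0.359% in muscle and 0.791% in heart. The combinations with an unadjusted p under 0.05 were 5 with DESeq2 and 0 with the exact test. Of all 1391 miRNAs, 88 (kidney) to 121 (spleen) per tissue had such a p with DESeq2. With the exact test these were 51 (kidney) to 85 (muscle). With the quasi-likelihood test 4 of the 36 had an unadjusted p under 0.05: miR-181c-5p in lung, against 4.74% of all miRNAs there, and miR-181a-5p, miR-181b-5p and miR-181a-3p in muscle, against 6.18%. In the tissues where no member did so, this share was 5.75% in spleen, 6.4% in heart, 4.6% in kidney and 4.24% in liver.

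Averaged over the 6 tissues of a goat, the summed family level differed by less than the spread between goats. Its log2 RPM was 13.60 ± 0.21 in the high-altitude goats and 13.74 ± 0.38 in the low-altitude goats (SD, n = 3; exact two-sided permutation test over goats, p = 0.7, the smallest possible p being 0.1). In muscle alone the sum was lower in every high-altitude goat, by a log2 difference of -1.03 (SD 0.33 in the high-altitude and 0.52 in the low-altitude goats, n = 3; exact permutation p = 0.1), and of -0.82 on TMM sizes. Low-altitude replicate 3 had the highest miR-181a-5p of the 6 goats in kidney (18744 RPM), liver (10120.1 RPM), lung (36691 RPM) and muscle (13945 RPM), but not in heart or spleen. The test of whether the altitude difference differed between tissues gave an adjusted p of 1 for each row and called 0.216% of all miRNAs.

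In muscle, 3 rows did not overlap between the populations on plain RPM. miR-181a-5p was 4676, 5467 and 3465 RPM in the high-altitude goats and 7434, 7423 and 13945 in the low-altitude goats. For miR-181b-5p the high-altitude goats had 47.3, 102 and 42.2 RPM and the low-altitude goats 117, 114 and 217. For both, every high-altitude value was below every low-altitude value, as for 5.18% of all miRNAs in muscle. miR-181a-3p went the other way, with 55.7, 35.2 and 44.4 RPM in the high-altitude goats and 27.5, 16.03 and 22.1 in the low-altitude goats, as for 3.24% of all miRNAs. The log2 fold changes, high over low, were -0.92 (SE 0.36, adjusted p = 0.746), -1.15 (SE 0.41, adjusted p = 0.693) and 1.25 (SE 0.51, adjusted p = 0.746) in edgeR's test.

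The rows without overlap depended in part on the library size used. On TMM sizes, muscle kept miR-181a-5p (log2 difference -0.83) and miR-181b-5p (-1.05) as lower in all 3 high-altitude goats and gained miR-181c-5p (-0.61), against 4.6% of all miRNAs. miR-181a-3p in muscle then overlapped, at 5.58 to 6.98 log2 RPM in the high-altitude goats and 4.75 to 5.72 in the low-altitude goats, where 4.74% of all miRNAs were higher without overlap. In kidney miR-181b-5p became lower without overlap (-0.54), as did 4.89% of all miRNAs, and miR-181c-3p higher (0.59), as did 4.03%. In lung miR-181c-5p (-0.73) was lower, against 4.53% of all miRNAs, whereas miR-181b-3p had at most 5 counts in a lung library and is not ordered here. In heart miR-181c-5p (-0.94) was lower, against 8.05%. The higher side held no member in lung (3.81% of all miRNAs) or heart (3.95%). No member was without overlap in liver (4.96% lower and 3.95% higher) or spleen (6.04% lower and 4.17% higher).

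On plain RPM, miR-181c-5p was lower at high altitude in heart and lung without overlap, as 4.03% and 5.97% of all miRNAs were. By that measure no member was without overlap in spleen, kidney or liver, where 5.54, 3.67 and 5.97% of all miRNAs were lower and 4.46, 1.73 and 2.37% higher in all 3 high-altitude libraries. In heart and lung, 8.05 and 2.3% were higher, none of them a member. In lung miR-181c-5p was at 257.8, 311.6 and 181.3 RPM in the high-altitude goats and 417, 387 and 821 in the low-altitude goats. In heart the high-altitude goats had 237, 311 and 223 RPM and the low-altitude goats 334, 311 and 459.8, where the closest values were 310.9 and 311.4 RPM. The log2 fold change was -0.96 (SE 0.39, adjusted p = 0.832) in lung and -0.67 (SE 0.30, adjusted p = 0.748) in heart. Over all 6 tissues, which come from the same goats, the estimate for miR-181c-5p lay between -0.96 and -0.36, below 0 in each tissue and under every setting tried. Its size rested in part on single goats: without low-altitude replicate 3 it was -0.39 in liver, against -0.89 with all goats, and -0.48 in lung, without low-altitude replicate 1 it was -0.23 in spleen, against -0.63, and -0.22 in kidney, and without high-altitude replicate 3 it was -0.20 in kidney. For miR-181c-3p it lay between 0.17 and 0.64, above 0 in each tissue, although it was -0.07 in heart in one fit over all libraries and as low as -0.06 in spleen and -0.02 in heart with a goat left out. With a goat left out it also ran from 0.010 to 1.03 in liver, 0.0036 to 0.44 in muscle and 0.15 to 0.69 in lung. None of the 12 estimates for the 2 arms with all goats passed the test.

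Some marker miRNAs of other tissues and cells were also without overlap between the populations. This held in heart, lung and muscle, where members were so by plain RPM, and in spleen, kidney and liver, where no member was. Of 20 marker rows, the high-altitude goats were above the low-altitude goats without overlap, by plain RPM, in 2 in muscle, 5 in heart, 5 in spleen, 6 in lung, 6 in kidney and 3 in liver, and below them in 1 in muscle and 1 in liver. Of all 1391 miRNAs, 3.24, 8.05, 4.46, 2.3, 1.73 and 2.37% were above in these tissues, in the order given. In muscle 5.18% and in liver 5.97% of all miRNAs were below. The row that was lower in muscle, as miR-181a-5p and miR-181b-5p were, is the endothelial miR-126-3p, with 2314 to 3746 RPM against 3797 to 8093. Its other arm, miR-126-5p, leaned the other way in muscle and overlapped, at 3303 to 4906 against 2409 to 3510 RPM. The sum of both arms overlapped as well, at 6837 to 7232 against 6206 to 11603 RPM. In lung the 6 higher rows include miR-150-5p (838 to 1863 against 233 to 461 RPM) and miR-223-3p (265 to 1461 against 60.9 to 161), both of leukocytes. The other leukocyte rows overlapped in lung, among them miR-142-5p (6166 to 10541 against 7957 to 10602) and miR-142-3p (204 to 481 against 393 to 602). The sum of the leukocyte list overlapped there too, at 10417 to 16103 against 10576 to 15126 RPM.

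By the sums of the lists, which can hide such rows, the result depended in part on the scale. In muscle the red cell list, of which 3 of 4 names had rows, summed to 37961 to 62077 RPM in the high-altitude goats and 16069 to 37257 in the low-altitude goats on TMM sizes, and overlapped on plain RPM, at 16925 to 43024 and 13738 to 20179. Nearly all of this sum was miR-486-5p, and both arms of miR-144 were at 0 in 1 of 3 muscle libraries of each population. miR-486-5p had its highest means in muscle (22874 RPM) and heart (22401 RPM), whereas both arms of miR-144 were highest in spleen. Whether miR-486-5p follows red cells in muscle was not tested. The leukocyte list in muscle was also higher on TMM sizes alone, at 1880 to 3639 against 1694 to 1699 RPM, and the muscle list in heart was lower on TMM sizes alone, at 94653 to 153423 against 177553 to 254482. On plain RPM alone, the heart list was higher in lung (20.1 to 105 against 5.06 to 16.2) and the kidney marker in heart (119 to 197 against 90.4 to 108). Higher on both scales were, by plain RPM, the kidney marker (161 to 279 against 108 to 140) and the liver marker (19.6 to 129 against 5.69 to 12.7) in lung, and the lung marker in heart (5.01 to 15.01 against 1.02 to 3.89). In kidney the heart list (62.4 to 170 against 4.05 to 30.7), the muscle list (656 to 1029 against 80.5 to 267) and the lung marker (10.4 to 35.1 against 4.97 to 7.30) were higher on both. In liver the heart list was higher on both (187 to 287 against 17.8 to 141) and the red cell list lower on both (343 to 6381 against 8651 to 9952). In spleen the lung marker was higher on both (25.8 to 35.5 against 3.91 to 10.6). The part of these markers in the miR-181 differences was not tested.

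**Figure D4:**
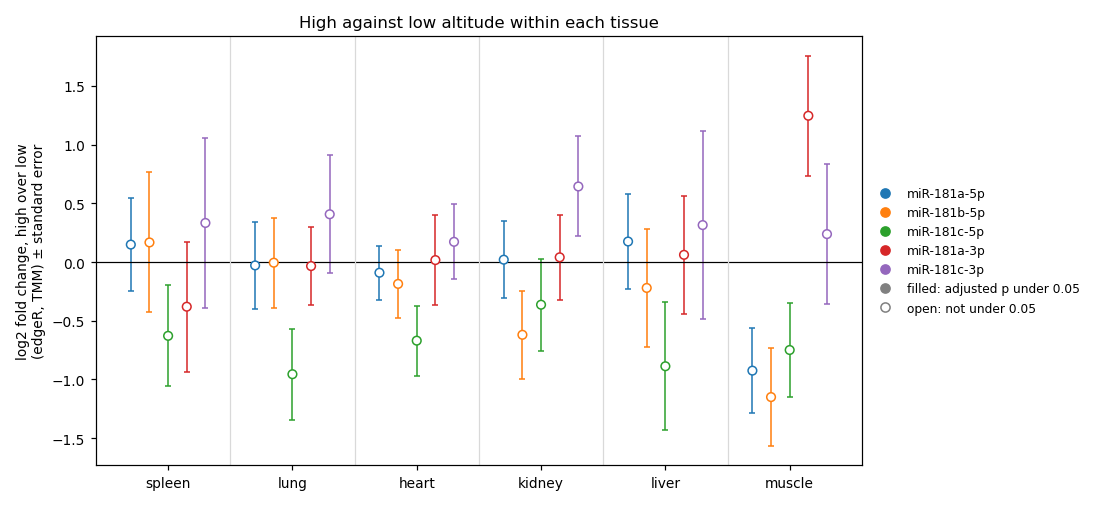
Log2 fold change of high over low altitude within each tissue for 5 family members, with standard errors, from edgeR with TMM on 3 against 3 libraries; open points have an adjusted p not under 0.05. All points are open, the miR-181c-5p points lie between -0.96 and -0.36, and the miR-181c-3p points between 0.17 and 0.64.

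The ratio of the arms of miR-181c separated the populations in all 6 tissues. The counts hold only reads that match the reference genome without mismatches, and whether the populations differ from it in the sequence of either arm was not tested. The 3p share of the miR-181c counts was 12.4, 9.0 and 13.9% in heart of the high-altitude goats and 7.14, 5.70 and 7.04% in heart of the low-altitude goats. In lung it was 6.15, 5.98 and 8.33% against 3.81, 2.4 and 2.44%, given in the same order. In liver it was 6.59, 5.55 and 7.35% against 2.29, 3.00 and 3.36%. In each of these tissues the lowest high-altitude share lay above the highest low-altitude share.

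The same held in the other tissues with smaller gaps. In kidney the high-altitude goats had shares of 5.54, 4.68 and 9.05% and the low-altitude goats 2.74, 4.26 and 2.89%. In muscle it was 7.74, 5.35 and 9.75% against 4.02, 5.0 and 3.35%, and in spleen 6.11, 5.13 and 7.64% against 4.28, 1.94 and 3.05%. High-altitude replicate 2 had the lowest share among the high-altitude goats in each tissue. The 95% confidence intervals of single libraries (exact Clopper-Pearson, for counting error only) were also separated in heart and lung, but not in the other tissues. The widest, in liver of high-altitude replicate 1, ran from 4.38 to 9.44% for 27 of 410 counts.

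**Figure D5:**
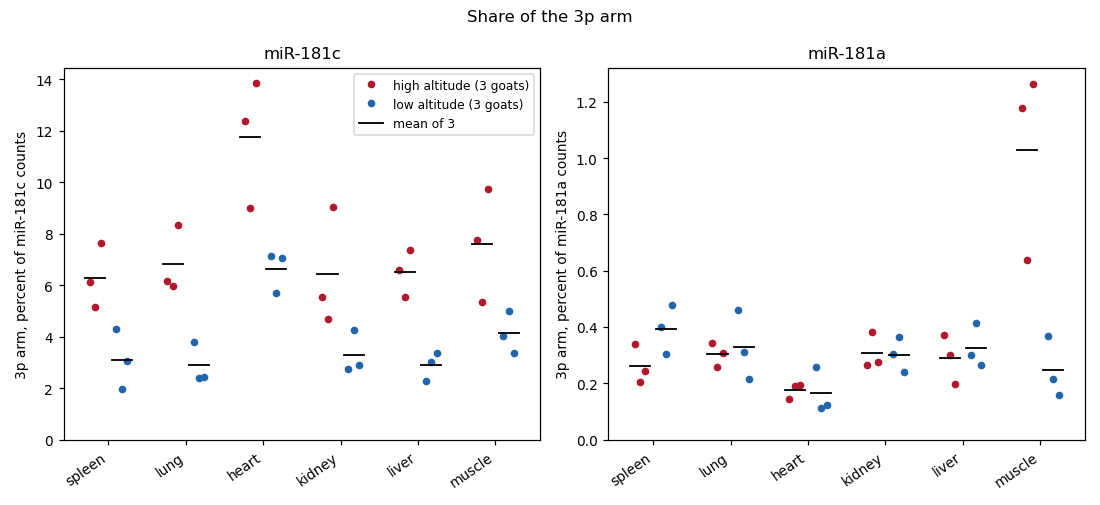
Share of the 3p arm in the counts of miR-181c (left) and miR-181a (right), in percent, by tissue, with 1 point per library, high altitude in red, low altitude in blue, and a line at the mean of 3. The red points of miR-181c lie above the blue points in all 6 tissues, and those of miR-181a only in muscle, with a mean of 1.03% against 0.248%.

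The log2 difference of the 3p to 5p ratio of miR-181c, high minus low altitude, was 1.32 (SE 0.30) in lung, 1.22 (SE 0.33) in liver, 1.12 (SE 0.48) in spleen, 0.97 (SE 0.42) in kidney, 0.91 (SE 0.36) in muscle and 0.89 (SE 0.27) in heart. With limma over the 164 precursors whose arms both had a mean of at least 1 RPM, the unadjusted p ran from 0.0073 in lung to 0.0653 in kidney and the adjusted p from 0.138 in heart to 0.344 in muscle, so that no tissue passed. A ratio higher in all 3 high-altitude libraries was found for 12.8% of the precursors in lung, 15.9% in liver, 19.5% in spleen, 17.7% in kidney, 14.6% in muscle and 22.6% in heart, and a ratio lower in all 3 for 9.76, 7.32, 10.4, 7.93, 5.49 and 10.4%. In all 6 tissues it was found for 2 of the 164 precursors (1.22%), miR-181c and miR-3431, the latter named because of this result, and the opposite was found for 0 (0.0%). In at least 5 tissues it was found for 4.27%. The tissues of a goat are not independent, so the 6 tissues are not 6 replicates.

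Averaged over the 6 tissues of a goat, the log2 ratio of miR-181c was -3.69, -4.01 and -3.31 in the high-altitude goats and -4.65, -4.78 and -4.79 in the low-altitude goats. The difference was 1.07 (SE 0.26; limma over 164 precursors, p = 0.0064, adjusted p = 0.0529), and the exact permutation test gave p = 0.1, the smallest that 3 goats against 3 can give. By this measure 10.4% of the precursors passed an adjusted p of 0.05, and miR-181c was number 19 of 164 by its p. The median difference over the 164 precursors was also above 0 in each tissue, at 0.33 in liver, 0.28 in kidney, 0.20 in heart, 0.08 in muscle, 0.05 in lung and 0.002 in spleen. With a goat left out, the difference for miR-181c stayed between 0.68, in kidney, and 1.54, in lung.

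The arms of miR-181a differed between the populations without overlap in muscle alone. The 3p share there was 1.18, 0.64 and 1.26% in the high-altitude goats and 0.369, 0.215 and 0.158% in the low-altitude goats. The log2 difference of the ratio was 2.09 (SE 0.47; limma, adjusted p = 0.2), with 14.6% of the precursors separated in the same direction in muscle, and it stayed between 1.81 and 2.42 with a goat left out. In the other 5 tissues the differences lay between -0.60, in spleen, and 0.19, in heart, and the groups overlapped. Muscle of the high-altitude goats therefore held the highest 3p shares of miR-181a among the 36 libraries, where the 33 others ran from 0.112 to 0.477%.

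The balance between the 5p arms was compared in the same way, over the 3 pairs of 5p arms. The populations did not overlap in 1 of the 3 ratios in lung, liver, kidney and muscle and in 0 in spleen and heart. Over all 47278 pairs of the 308 miRNAs with at least 10 RPM, the share of ratios without overlap in either direction was 24.9% in lung, 22.7% in liver, 22.4% in kidney, 28.5% in muscle, 25.1% in spleen and 29.2% in heart, so that the members' counts were near the background. miR-181a-5p exceeded miR-181b-5p by 68.9, 61.5 and 78.1 times in kidney of the high-altitude goats and by 50.8, 47.3 and 40.3 times in kidney of the low-altitude goats, without overlap (exact permutation p = 0.1). miR-181a-5p exceeded miR-181c-5p by 135, 125 and 110.5 times in liver of the high-altitude goats and by 61.0, 67.8 and 53.7 times in liver of the low-altitude goats, also without overlap, and the same held in lung, with 91.0, 106 and 76.9 against 41.4, 60.0 and 44.7 times. Averaged over the tissues of a goat, 2 of the 3 ratios did not overlap, against 31.0% of all pairs. The log2 ratio of miR-181a-5p to miR-181b-5p was 5.88 ± 0.16 in the high-altitude goats and 5.60 ± 0.029 in the low-altitude goats, and that of miR-181a-5p to miR-181c-5p was 6.49 ± 0.19 in the high-altitude goats and 5.92 ± 0.21 in the low-altitude goats (SD, n = 3; exact permutation p = 0.1, the smallest possible). The ratio of miR-181b-5p to miR-181c-5p was without overlap in muscle alone, with 1.14, 1.47 and 0.939 in the high-altitude goats and 1.499, 1.76 and 1.497 in the low-altitude goats (exact permutation p = 0.1).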

How the data were processed

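Small RNA of 6 tissues from 6 goats was sequenced from TruSeq libraries on the Illumina HiSeq. Per the paper's methods, Bowtie placed the reads on the goat genome ARS1 without mismatches, and miRDeep2 with miRBase 21 gave the expression of each mature miRNA. A miRNA stayed in the tables if some library held 3 reads of it or more. Base calling with CASAVA 1.8 is named in the submitters' processing notes. The deposited values are whole-number counts per mature miRNA and library, not normalized, so tests were run on counts. How reads that fit several miRNAs were shared between them is not given in the sources used here, and the seed shared by the family members does not make their mature sequences equal.

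RPM is the count divided by the library's sum over 1391 miRNAs, which is not its read total. Depth was 7108635 to 14407748 counts, and floors and intervals cover counting error only, since no molecular identifiers were used. All miRNAs entered edgeR 4.0.16 (TMM, quasi-likelihood test, Benjamini-Hochberg adjustment; R 4.3.3). Altitude was tested within each tissue, without a block, at the study's thresholds, an adjusted p of 0.05 and an absolute log2 fold change of 1.5. The paper names edgeR but not which of its tests, and it reported differentially expressed miRNAs in every tissue. Tissue contrasts used one fit over 12 groups. SEs of fold changes were derived from the F statistic. Ratios used 0.5 added counts and were tested by exact sign-flip or permutation tests, and arm ratios over all precursors with limma 3.58.1, an analysis added after seeing the data. Overlap on TMM sizes and the ratios of all pairs of miRNAs were also added after seeing the data. Levels, ratios and exact tests were computed in Python 3.11.15 (pandas 2.3.3, SciPy 1.17.1, NumPy 2.4.6). The tests were tested on simulated data.

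The 6 tissues of a goat are from the same animal, and deviations from the group means over 217 miRNAs correlated between them with a mean r of 0.068 to 0.337 per goat, so the goat was tried as a block for tissue contrasts. Alternatives were DESeq2 1.42.0, RLE size factors, library totals, filterByExpr, edgeR's exact test, equal rows kept once, other pseudocounts and scales, and each goat left out. Rows with a mean of at least 10 RPM are described in full; the miRNAs most like a member are the 5 with the highest r. The members and lists were chosen with earlier results of these data known. Gene names came from the RefSeq table of assembly ARS1.2, and no coordinates or sequences were used.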

Additional observations from a re-analysis of the deposited data

Results flagged for a closer look

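In 9 of 60 sets of 6 libraries (a member or ratio in 1 tissue), the highest or lowest library lay farther from the others than Dixon's 95% critical value of 0.625 allows; chance flags about 1 in 20. For miR-181b-5p, kidney of low-altitude replicate 3 had 465.5 RPM, and the next library had 219 RPM. For miR-181c-5p, low-altitude replicate 3 had 821.4 RPM in lung, where the next had 417, and 144.7 RPM in muscle, where the next had 78.0. Spleen of low-altitude replicate 1 had 626.2 RPM of miR-181c-5p, and the next had 353. Lung of high-altitude replicate 3 was lowest for miR-181a-3p, with 43.2 RPM against 72.6 in the next, and lung of low-altitude replicate 2 was lowest for miR-181c-3p, with 9.49 RPM against 16.5.

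The ratio of miR-181a-5p to miR-181b-5p was 157.5 in heart of high-altitude replicate 1, against 111 in the next library. The ratio of miR-181b-5p to miR-181c-5p was 0.744 in heart of high-altitude replicate 3, against 0.464, and 7.71 in spleen of high-altitude replicate 1, against 3.16. Without that spleen library the remaining 5 ratios ran from 1.73 to 3.16.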

How the results depend on the processing

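The limits are 3 goats a population, 1 library per goat and tissue, and few counts for the 3p arms. The altitude test called none of the 36 combinations under any setting, and the adjusted p of the interaction stayed at or above 0.44. Some altitude estimates changed sign. With library totals these are miR-181a-5p in heart (0.070) and kidney (-0.20), miR-181b-5p in lung (0.0067), and miR-181a-3p in kidney (-0.052) and liver (-0.0075). In lung, RLE size factors and DESeq2 both gave 0.029 for miR-181a-5p, 0.057 for miR-181b-5p and, in this order, 0.043 and 0.042 for miR-181a-3p, and one fit over all libraries gave 0.14, 0.12 and 0.13. For miR-181a-3p in heart, filterByExpr gave -0.093, equal rows kept once -0.11 and one fit -0.22, and for miR-181c-3p in heart one fit gave -0.075. The cause was not tested.

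Numbers 1 to 3 name different goats in the populations, and the deviations of same-numbered goats correlated with a mean r of -0.0734 to 0.205 per tissue, so no pairing was used for altitude. With the replicate number as a block, miR-181a-5p in lung was at 0.026 and miR-181b-5p in spleen at -0.12, both of changed sign, and none was called. In the tissue contrasts the goat as a block gave 19 calls: miR-181b-5p in muscle lost its call (-0.70), and miR-181c-5p in spleen and miR-181a-3p in muscle gained one.

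Leaving out each goat gave altitude estimates of either sign. For miR-181a-5p they ran from -0.16 to 0.20 in kidney, -0.082 to 0.55 in liver, -0.22 to 0.38 in lung and -0.068 to 0.56 in spleen, and for miR-181b-5p from -0.54 to 0.13 in liver, -0.32 to 0.38 in lung and -0.75 to 0.50 in spleen. For miR-181a-3p they ran from -0.20 to 0.35 in heart, -0.066 to 0.21 in kidney, -0.15 to 0.33 in liver, -0.15 to 0.17 in lung and -0.88 to 0.059 in spleen, and for miR-181c-3p from -0.017 to 0.24 in heart and -0.062 to 1.16 in spleen.

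In the tissue contrasts, leaving out each goat gave 8 to 14 calls, all among the 18 apart from miR-181b-3p in heart without high-altitude replicate 2 and miR-181c-5p in spleen without low-altitude replicate 3. Over all 1391 miRNAs these fits called 130 to 220 per tissue. The values of lost or gained calls ran from 0.58 to 0.67 for miR-181a-5p in heart, 0.42 to 0.69 in lung and 0.54 to 0.99 in spleen. For miR-181b-5p they ran from -1.02 to -0.71 in liver, 0.73 to 1.10 in lung and -0.92 to -0.71 in muscle. For miR-181c-5p they ran from 0.61 to 0.83 in lung, -0.97 to -0.66 in muscle and 0.31 to 0.69 in spleen, and for miR-181a-3p from 0.79 to 1.08 in spleen. miR-181c-3p in spleen ran from -0.094 to 0.51.

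With library totals, miR-181a-5p in heart (0.14) and miR-181b-5p in liver (-0.42) were no longer called, miR-181a-5p in muscle (-1.18) and miR-181b-5p in heart (-1.15) were, and miR-181a-3p in muscle turned to -0.37. DESeq2 gave 27 calls, 10 of them not among the 18: miR-181a-5p (-0.48), miR-181b-5p (-0.60) and both arms of miR-181c in kidney, miR-181b-5p in heart (-0.71), miR-181c-5p in spleen, and miR-181a-3p and miR-181c-3p in lung and in muscle. The family level was 19200 RPM in heart and 11880 in muscle on TMM sizes, and 17506.1 RPM in heart and 49332.5 in spleen with the most abundant miRNA of each library left out of its total. On log2 values the specificity index fell to between 0.087 and 0.373 for the 5 described members. Summing copies or rows changed nothing by construction, since each member had 1 row, and was not run.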
